A study of Mus musculus with 2 samples.

Results

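Esr1, Pgr, Nr3c1 and Nr3c2, the genes of the estrogen receptor alpha, the progesterone receptor, the glucocorticoid receptor and the mineralocorticoid receptor, were followed across hypothalamic neurons. They are 4 named genes of 32285 in the table, and all 4 were among the 23143 genes detected in at least 3 nuclei. Nuclei came from micro-dissected hypothalamus of wild-type male C57BL/6J mice aged 10 to 12 weeks, with no treatment named, and were sorted by an antibody to NeuN, which labels the nuclei of neurons. All nuclei were sequenced as 1 pooled library of single nuclei, with 2 hashtags (antibody-borne barcodes that mark the tissue piece a nucleus came from) named ARC, for the arcuate nucleus, and PVH, for the paraventricular hypothalamus. The sample labels name the arcuate nucleus alone, so the PVH origin rests on the name of the hashtag. After filtering, 10170 nuclei remained, of which 3767 carried the ARC hashtag (median 4827 unique molecular identifiers, UMIs, per nucleus) and 3074 the PVH hashtag (median 5038.5 UMIs).

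On GRCm38 (GENCODE M21), Esr1 (ENSMUSG00000019768) lies on the plus strand of chromosome 10 from 4611593 to 5005614 and Pgr (ENSMUSG00000031870) on the plus strand of chromosome 9 from 8899833 to 8968611. Nr3c1 (ENSMUSG00000024431) runs from 39410545 to 39519421 of chromosome 18 (minus strand), and Nr3c2 (ENSMUSG00000031618) on the plus strand of chromosome 8 from 76899442 to 77245012. Nr3c2 overlaps 1 annotated gene on its own strand (Gm23260) and 2 on the other (Gm10649 and Gm24838), so its reads are less certain than those of the other receptors, which overlap none.

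Steroid receptors are transcription factors that sit with chaperones until a steroid binds, and then act on genes near hormone response elements in DNA. Estrogen and progesterone receptors carry the feedback of sex steroids onto the neurons that govern reproduction, and Pgr is itself a well-known estrogen-induced gene. The glucocorticoid and mineralocorticoid receptors both bind corticosteroids, the mineralocorticoid receptor with the higher affinity, and take part in the feedback of the stress axis, whose hypothalamic output comes from corticotropin-releasing neurons of the paraventricular nucleus.

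The promoter of Pgr is shown because Pgr levels followed those of Esr1 over the ARC clusters (below). The RefSeq sequence of the 250 bases before its start (GRCm38.p6, plus strand, chr9:8899583-8899832) overlaps no annotated exon of Pgr, and capitals mark a CCAAT box read on the minus strand.
Pgr: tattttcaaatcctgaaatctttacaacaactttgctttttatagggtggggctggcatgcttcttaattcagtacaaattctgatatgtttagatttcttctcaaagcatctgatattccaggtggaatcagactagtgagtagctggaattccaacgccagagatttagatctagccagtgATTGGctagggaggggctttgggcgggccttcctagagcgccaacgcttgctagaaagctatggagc
The window held 0 copies of GGTCA, the half-site of the estrogen response element, and 0 of TGTTCT, a half-site bound by glucocorticoid and progesterone receptors, on either strand. GGTCA was found in 35.2% of 32851 promoter windows of this length, TGTTCT in 16.1% and CCAAT in 33.8%. Both Esr1 windows also held neither half-site, and the Nr3c2 window held 2 copies of GGTCA and none of TGTTCT. These 3 windows overlap annotated exons and are not printed. Nr3c1 was not matched.

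Esr1 and Pgr were lower in PVH nuclei than in ARC nuclei. Levels are counts per 1000000 UMIs (CPM), of the UMIs summed over nuclei, with exact 95% Poisson intervals. Esr1 was at 117 CPM (113 to 122) in ARC nuclei and at 43.9 CPM (40.8 to 47.2) in PVH nuclei, a 2.68-fold difference (log2 -1.42, interval -1.54 to -1.30). Pgr was at 72.0 CPM (68.3 to 75.8) and 40.5 CPM (37.5 to 43.7), a 1.78-fold difference (log2 -0.83, interval -0.96 to -0.70). Nr3c1 and Nr3c2 differed less between the hashtags. Nr3c1 was at 124 CPM in ARC nuclei and 99.99 CPM in PVH nuclei (log2 -0.32), and Nr3c2 at 169 CPM and 197 CPM (log2 0.22). A difference was called when it reached 1.5-fold and its interval left out equality, so 2 of the 4 receptors were called lower and none higher, beside 4.19% of 14114 genes called lower and 4.41% called higher in PVH nuclei. With 1 pooled library there are no replicates and no test was made. Every interval here covers counting error only and not the spread between mice.

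The share of nuclei with at least 1 UMI gave the same order. Esr1 was seen in 31.6% of ARC nuclei and 17.0% of PVH nuclei, and Pgr in 25.6% and 18.2%. Nr3c1 was seen in 40.7% and 33.8%, and Nr3c2 in 45.8% and 51.5%. After each nucleus was thinned to 1000 UMIs, Esr1 was seen in 9.95% of ARC and 4.46% of PVH nuclei, and Nr3c2 in 14.7% and 16.3%. Esr2, which encodes estrogen receptor beta, went the other way from Esr1, at 3.28 CPM in ARC and 13.9 CPM in PVH nuclei (log2 2.08, interval 1.68 to 2.51).

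ARC nuclei fell into 13 clusters (A1 to A13, numbered by size), which were formed with the steroid receptor genes taken out of the genes used for clustering. By their markers, 6 clusters could be named. A1 was AGRP-like (681 nuclei), A3 SST-like (319), A4 POMC-like (286), A8 KNDy-like (211), A10 VMH-like (195) and A12 dopaminergic-like (183). KNDy neurons make kisspeptin, neurokinin B and dynorphin and drive the pulses of gonadotropin-releasing hormone. A8 passed on all 6 of its markers, with Tac2 (neurokinin B) at 150 CPM and Kiss1 (kisspeptin) at 2.86 CPM. Kiss1 was at 0 in every other named ARC cluster but the SST-like one, at 0.61 CPM. Among other clusters it was at 0.79 CPM in A6, 0.80 CPM in A7 and 2.73 CPM in P15, a cluster of PVH nuclei (below). All these Kiss1 levels, that of A8 included, are near the floor and do not by themselves set A8 apart. A2 (574 nuclei) held markers of astrocytes, tanycytes, oligodendrocytes, their precursors and the pars tuberalis beside neuronal genes, and was left unnamed. Its summed oligodendrocyte markers were at 278 CPM against 49.6 to 117 CPM in the other ARC clusters. Sim1, a marker used below to name PVH clusters, was among the leading genes of A2, at 59.0 CPM against 4.18 CPM or less in the others. With a finer clustering (Leiden resolution 1.2), 43 A2 nuclei had Sim1 at 414 CPM (340 to 500) and Nr3c1 at 7.67 CPM (0.93 to 27.7). These nuclei carry the ARC hashtag and count as ARC nuclei in the ratios between hashtags. Agrp transcripts, at 287 CPM in the AGRP-like cluster, were at 99.4 to 169 CPM in the other named ARC clusters, so transcripts of 1 cell type were also counted in nuclei of others. The part of such transcripts in low shares of receptor-positive nuclei was not tested. The AGRP-like cluster, with the lowest Esr1 level, still had an Esr1 UMI in 10.1% of its nuclei at a median of 5015 UMIs.

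**Figure D1:**
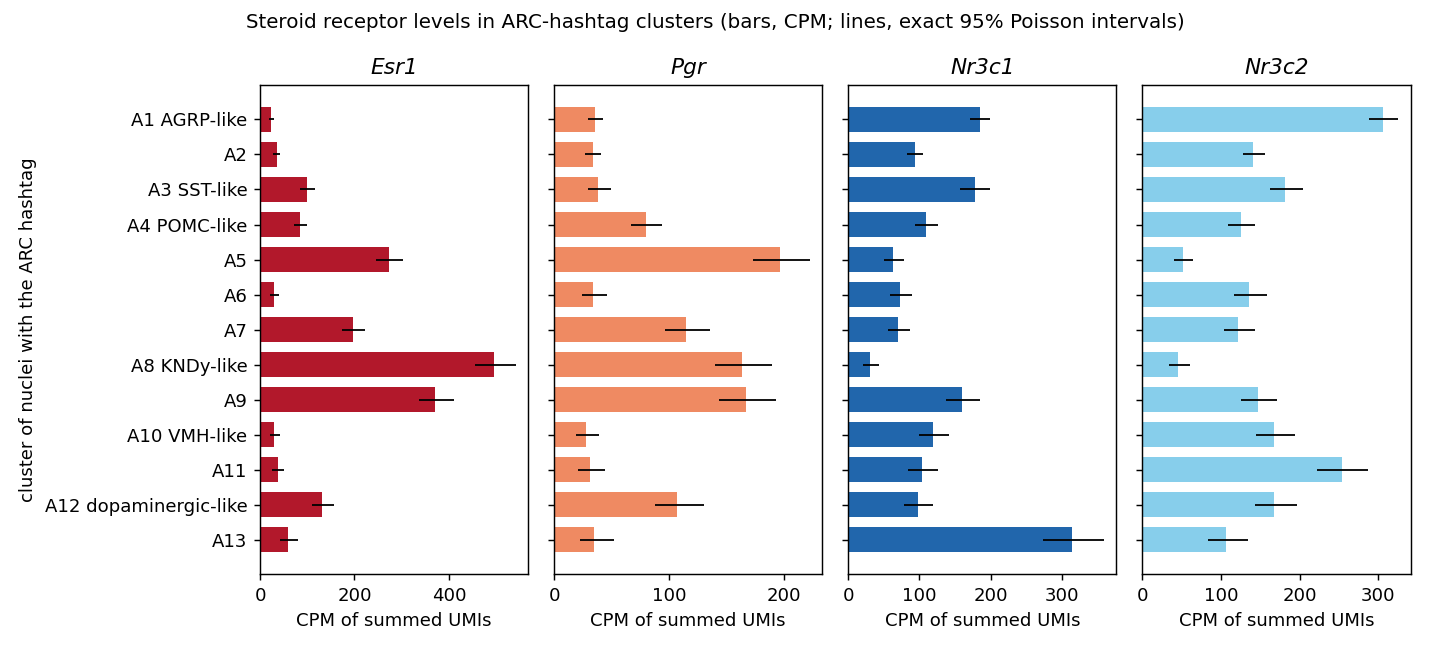
Bars show the CPM of summed UMIs of Esr1, Pgr, Nr3c1 and Nr3c2 in the 13 ARC clusters, 1 panel per gene with its own axis from 0, and lines show exact 95% Poisson intervals. The KNDy-like cluster A8 has the highest bar for Esr1 (497 CPM) and the lowest for Nr3c1 (30.5 CPM) and Nr3c2 (45.8 CPM).

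Esr1 was highest in the KNDy-like cluster, at 497 CPM (455 to 541), and 85.3% of its nuclei held an Esr1 UMI (37.0% after thinning, median depth 4582 UMIs). The next were A9 at 372 CPM (336 to 410), A5 at 274 CPM (246 to 304) and A7 at 197 CPM (173 to 223). A9 is a GABAergic cluster led by Chat, the acetylcholine-synthesising enzyme, with Ghrh (growth hormone-releasing hormone) at 79.5 CPM and Th (tyrosine hydroxylase) at 44.4 CPM. A5 is a GABAergic cluster with Tmem215, Sytl4 and Lamp5 among its leading genes, and A7 a glutamatergic one led by Smoc2. None of these 4 intervals overlapped its neighbour, nor did that of A7 overlap the dopaminergic-like cluster below it (132 CPM, 110 to 157). From there down, the SST-like (99.5 CPM) and POMC-like (84.9 CPM) clusters, A13, A11, A2, the VMH-like cluster (29.5 CPM), A6 and the AGRP-like cluster (23.4 CPM, 18.7 to 28.9) each overlapped the next. The span from the highest to the lowest was 21.2-fold. The 4 clusters called higher than the rest, A5, A7, A8 and A9, held 25.0% of ARC nuclei, 24.1% of all their UMIs and 66.8% of their Esr1 UMIs.

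Cluster A7 was not uniform in Esr1. With a finer clustering (Leiden resolution 1.2), its nuclei fell into 139 with Esr1 at 317 CPM (277 to 361) and Pgr at 170 CPM (141 to 204), and 108 with Esr1 at 40.4 CPM (25.3 to 61.2) and Pgr at 42.3 CPM (26.8 to 63.4). Smoc2, the gene that led the whole cluster, was at 38.6 CPM in the smaller group and 4.23 CPM in the larger. Both groups had more Slc17a6, the vesicular glutamate transporter gene, than Slc32a1, its GABAergic counterpart. When nuclei of both hashtags were clustered together, A7 parted in the same way, into 130 nuclei with Esr1 at 325 CPM and 104 with Esr1 at 29.4 CPM.

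The same 4 clusters led in Pgr, in another order. A5 was at 197 CPM (173 to 222), A9 at 166 CPM (143 to 193), the KNDy-like cluster at 163 CPM (139 to 189) and A7 at 115 CPM (96.8 to 135). The first 3 had overlapping intervals, so their order is not settled by these counts. The dopaminergic-like cluster followed at 107 CPM (87.4 to 130) and the POMC-like cluster at 79.5 CPM (66.6 to 94.2). The other 7 clusters lay between 27.6 CPM in the VMH-like cluster and 38.5 CPM in the SST-like cluster. Pgr was seen in 54.1% of A5 nuclei and in 14.4% of VMH-like nuclei.

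For Nr3c1 the KNDy-like cluster was at the bottom. A13, a GABAergic cluster with Lhx1, which encodes a homeobox factor, among its leading genes, was highest at 314 CPM (273 to 359), with the AGRP-like cluster at 185 CPM (171 to 199), the SST-like cluster at 178 CPM (158 to 199) and A9 at 160 CPM (137 to 186) behind it. The KNDy-like cluster was lowest at 30.5 CPM (20.9 to 43.1), below A5 at 62.7 CPM (49.9 to 77.9), and the intervals of these 2 did not overlap. Nr3c1 was seen in 72.2% of A13 nuclei and in 12.3% of KNDy-like nuclei.

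Nr3c2 was highest in the AGRP-like cluster, at 306 CPM (289 to 325), and next in A11, at 253 CPM (223 to 287), a GABAergic cluster led by Tbx19. The KNDy-like cluster was again lowest at 45.8 CPM (33.7 to 60.7), beside A5 at 51.2 CPM (39.7 to 65.1), whose interval overlapped it, and A13 at 107 CPM stood above both. A13 thus had the highest level of Nr3c1 and the third lowest level of Nr3c2. The AGRP-like cluster alone held 34.2% of the Nr3c2 UMIs of ARC nuclei and 18.9% of all their UMIs.

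Set against all other ARC neurons, the KNDy-like cluster had 2 receptors called higher and 2 called lower. Esr1 was 5.18-fold higher (log2 2.37, interval 2.23 to 2.52) and Pgr 2.44-fold higher (log2 1.29, interval 1.05 to 1.52). Nr3c1 was 4.25-fold lower (log2 -2.09, interval -2.64 to -1.59) and Nr3c2 3.85-fold lower (log2 -1.94, interval -2.39 to -1.53). In this comparison 5.71% of 12453 genes were called higher and 9.68% lower.

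The AGRP-like cluster, whose neurons promote feeding, had the opposite signs for all 4. Esr1 was 5.96-fold lower (log2 -2.57, interval -2.90 to -2.26) and Pgr 2.26-fold lower (log2 -1.18), while Nr3c1 was 1.67-fold higher (log2 0.74, interval 0.61 to 0.87) and Nr3c2 2.23-fold higher (log2 1.16, interval 1.05 to 1.26). Genes called higher made up 4.7% of those compared and genes called lower 8.23%. After thinning to 1000 UMIs its Nr3c1 ratio was log2 0.47 (interval 0.14 to 0.79), under the threshold. The VMH-like cluster, named by the ventromedial factors Nr5a1 and Fezf1, was lower in Esr1 (log2 -2.06, interval -2.61 to -1.56) and Pgr (log2 -1.43, interval -2.01 to -0.91) and near the rest in Nr3c1 (log2 -0.07) and Nr3c2 (log2 -0.01), where 5.17% of genes were called higher and 9.93% lower. After the same thinning its Pgr ratio was log2 -0.36, no longer called, and its Nr3c2 ratio log2 -0.69 (interval -1.39 to -0.07), past the threshold.

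In the POMC-like cluster, whose neurons restrain feeding, none of the 4 receptors was called, and 4.03% of genes were called higher and 7.4% lower. Its log2 ratios were -0.51 for Esr1, 0.16 for Pgr, -0.21 for Nr3c1 and -0.46 for Nr3c2. At a positive quantile of 0.99 for the hashtags Esr1 (-0.63) and Nr3c2 (-0.69) passed the threshold, as did Esr1 without the mixed cluster A2 (-0.69). The dopaminergic-like cluster had Pgr alone called higher (1.53-fold, log2 0.61, interval 0.30 to 0.90), just past the threshold, with 4.76% of genes called higher and 9.08% lower. The Pgr ratio in this class ran from 0.08 to 0.85 over the alternatives, so the call does not hold under all of them. Its Nr3c1 ratio was log2 -0.36 and ran from -0.69 to 0.68, past the threshold on the higher side with Leiden resolution 0.3, with 50 components and with both hashtags clustered together. Under these settings the dopaminergic-like class held 316, 319 and 322 nuclei against 183 in the main setting, so the ratios there describe a larger set of nuclei. The SST-like cluster had Pgr alone called lower (log2 -0.96, interval -1.35 to -0.60) among 5.44% of genes called lower and 3.97% called higher, and Nr3c1 was at 1.49-fold of the rest (log2 0.57), past the threshold under 8 of the 16 alternatives (0.51 to 0.89).

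The 3 unnamed clusters rich in Esr1 had Esr1 and Pgr called higher together. A9 was higher by log2 1.86 in Esr1 and 1.33 in Pgr, A5 by log2 1.37 and 1.64, and A7 by log2 0.81 and 0.73. Genes called higher were 4.73% of those compared in A9 (8.41% lower), 4.73% in A5 (7.46% lower) and 3.68% in A7 (5.52% lower). After thinning to 1000 UMIs, Pgr in A9 was at log2 0.63 (interval -0.07 to 1.26) and no longer called. In the corticosteroid receptors, A5 was low in both Nr3c1 (log2 -1.04) and Nr3c2 (log2 -1.79) as the KNDy-like cluster was, and A7 was low in Nr3c1 (log2 -0.87) with Nr3c2 at log2 -0.50. In A9 they were at log2 0.39 and -0.21. A13 was higher in Nr3c1 (log2 1.42, interval 1.21 to 1.62) and lower in Nr3c2 (log2 -0.68, interval -1.04 to -0.35), among 4.22% of genes called higher and 6.75% called lower.

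**Figure D2:**
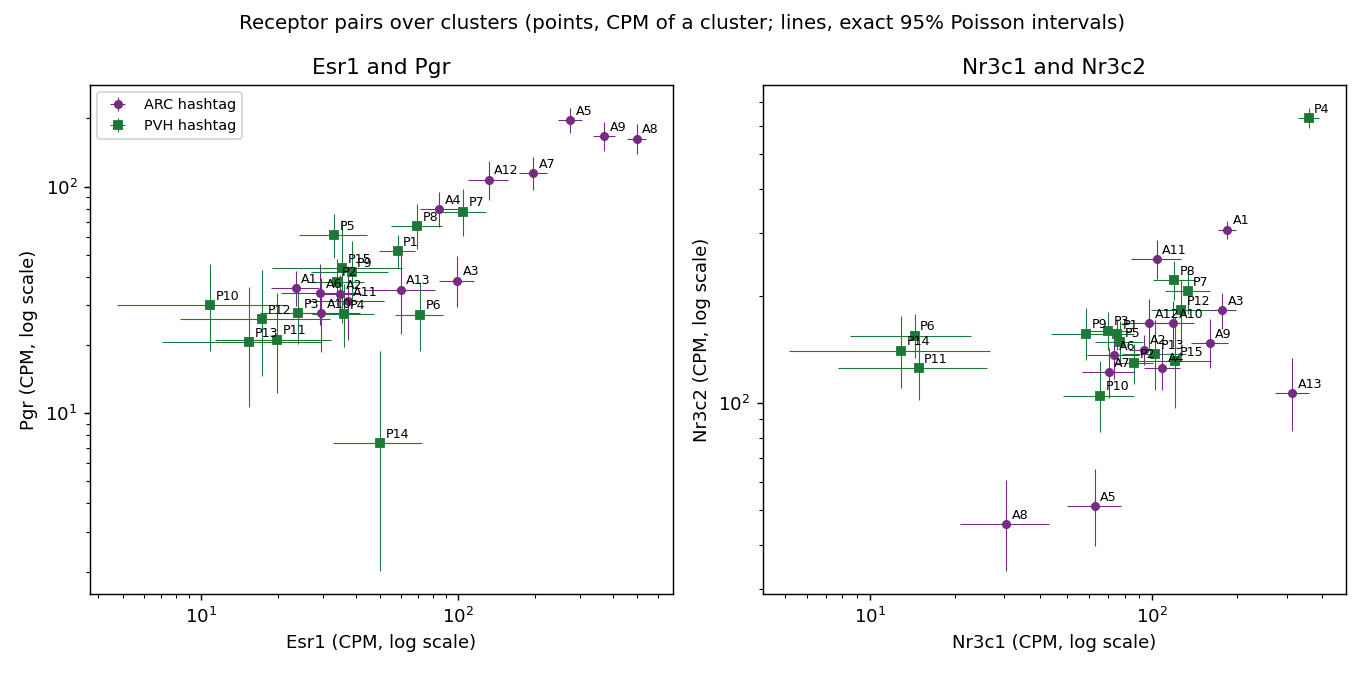
Each point is a cluster, placed by its CPM of Esr1 and Pgr (left) or Nr3c1 and Nr3c2 (right) on log axes, with circles for the ARC hashtag, squares for the PVH hashtag and lines for exact 95% Poisson intervals. A5, A8 and A9 lie at the upper right for Esr1 and Pgr, and P4 stands alone at the upper right for Nr3c1 and Nr3c2 (359 and 631 CPM).

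Across the 13 ARC clusters, log2(CPM + 10) of Esr1 and Pgr had a Pearson correlation of 0.93. The same value was -0.69 for Esr1 and Nr3c2, -0.44 for Esr1 and Nr3c1, and 0.58 for Nr3c1 and Nr3c2. Across the 15 PVH clusters it was 0.46 for Esr1 and Pgr and 0.63 for Nr3c1 and Nr3c2. The clusters share 1 library, so these values are descriptions. Among 12453 genes, those with the pattern over ARC clusters most like that of Esr1 were Chst11 (r = 0.96), Greb1 (0.96), Pgr (0.93), Chpt1 (0.93) and Pdcd4 (0.92). Those most like Pgr were Chst11 (0.94), Esr1 (0.93), Lysmd4 (0.92), Ern1 (0.91) and Atxn7l1os1 (0.91). Nearest to Nr3c1 were Ankef1 (0.90), Iqcm (0.87), Zfp607b (0.87), Slc22a21 (0.87) and Plekhn1 (0.86), all at 30.7 CPM or less in their highest cluster. Nearest to Nr3c2 were Nol4 (0.92), Extl3 (0.91), Tmem108 (0.89), Rps6ka5 (0.88) and 5330413P13Rik (0.87).

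Within single nuclei, Pgr was more often seen where Esr1 was seen. Among ARC nuclei, 40.1% (37.3% to 43.0%) of the 1191 with an Esr1 UMI also held a Pgr UMI, against 18.8% (17.3% to 20.4%) of the 2576 without, at median depths of 4947 and 4778 UMIs (exact binomial intervals). After thinning the shares were 13.1% and 5.96%. Inside the KNDy-like cluster Pgr was seen in 90 of 180 nuclei with Esr1 and 51.6% of the 31 without, with intervals that overlap widely, and they also overlapped inside A5 (55.9% and 50.5%) and A9 (51.6% and 48.9%). In A7 they stood apart, at 57.5% (47.9% to 66.8%) with Esr1 and 20.9% (14.4% to 28.8%) without. Outside these 4 clusters the shares were 24.9% (21.3% to 28.7%) and 16.3% (14.8% to 17.9%). Nr3c2 was seen less often in ARC nuclei with Esr1 (36.6%) than in those without (1288 of 2576), and outside the same 4 clusters the shares were 51.0% and 51.6%.

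**Figure D3:**
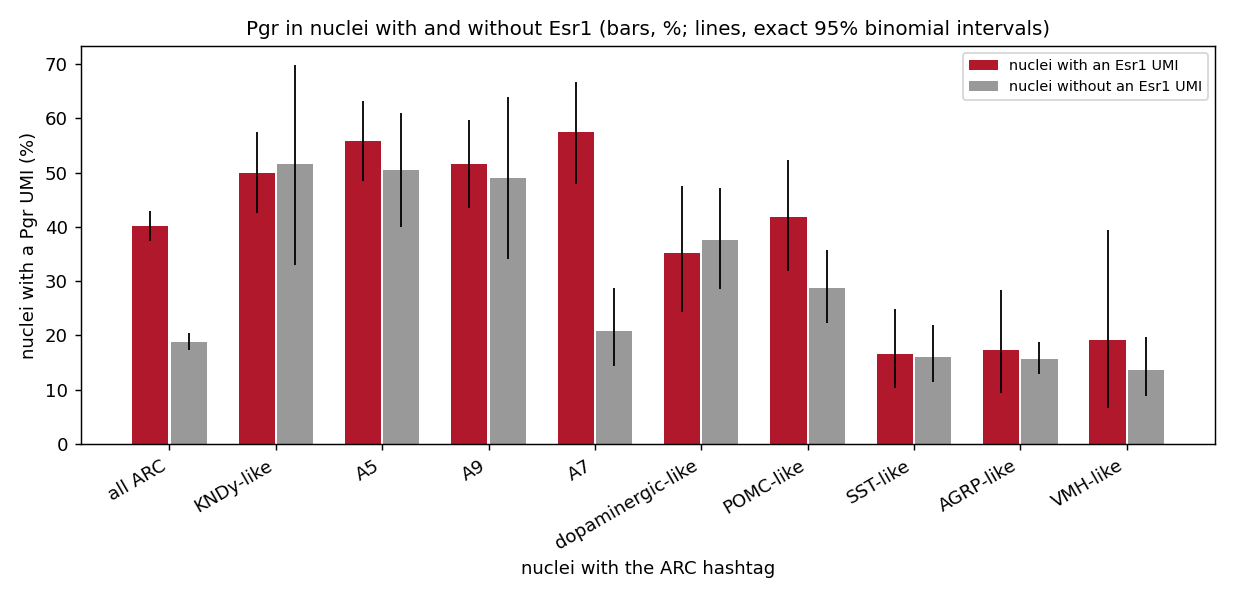
Bars show the percent of nuclei with a Pgr UMI among ARC nuclei with and without an Esr1 UMI, in all ARC nuclei and in 9 clusters, with exact 95% binomial intervals. The bars differ over all ARC nuclei (40.1% and 18.8%) and in A7 (57.5% and 20.9%) and have overlapping intervals in the KNDy-like cluster, A5 and A9.

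Nr3c1 and Nr3c2 were seen together less clearly. In ARC nuclei Nr3c2 was seen in 51.1% of 1533 nuclei with Nr3c1 and 42.1% of 2234 without, at median depths of 5092 and 4669.5 UMIs, but after thinning the order turned, with 12.0% and 15.0%. In PVH nuclei the shares were 58.7% (55.6% to 61.7%) and 47.9% (45.7% to 50.1%), and 19.9% and 15.9% after thinning. For Esr1 and Pgr in PVH nuclei they were 24.9% and 16.8%, and 2.92% and 4.36% after thinning.

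PVH nuclei fell into 15 clusters (P1 to P15). Sim1, which encodes a factor needed to form the paraventricular nucleus, and 2 or more further markers named 6 of them Sim1-like (P4, P6, P8, P10, P11 and P14), with 1010 nuclei in all. P11 had Oxt (oxytocin) at 1984 CPM and P14 Avp (vasopressin) at 1504 CPM. Both transcripts were also counted elsewhere, at 465 to 596 CPM for Oxt and 220 to 295 CPM for Avp in the other Sim1-like clusters. P1 passed on astrocyte markers (Aqp4, Slc1a3 and Agt) and P2 on oligodendrocyte markers beside neuronal genes, and both were left unnamed. Summed oligodendrocyte markers were at 413 CPM in P2, with P8 next at 110 CPM. Summed astrocyte markers did not set P1 apart, at 56.4 CPM against 84.0 CPM in P13 and 57.3 CPM in P8. P1 was thus set aside by the number of astrocyte markers that passed and not by their summed level.

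**Figure D4:**
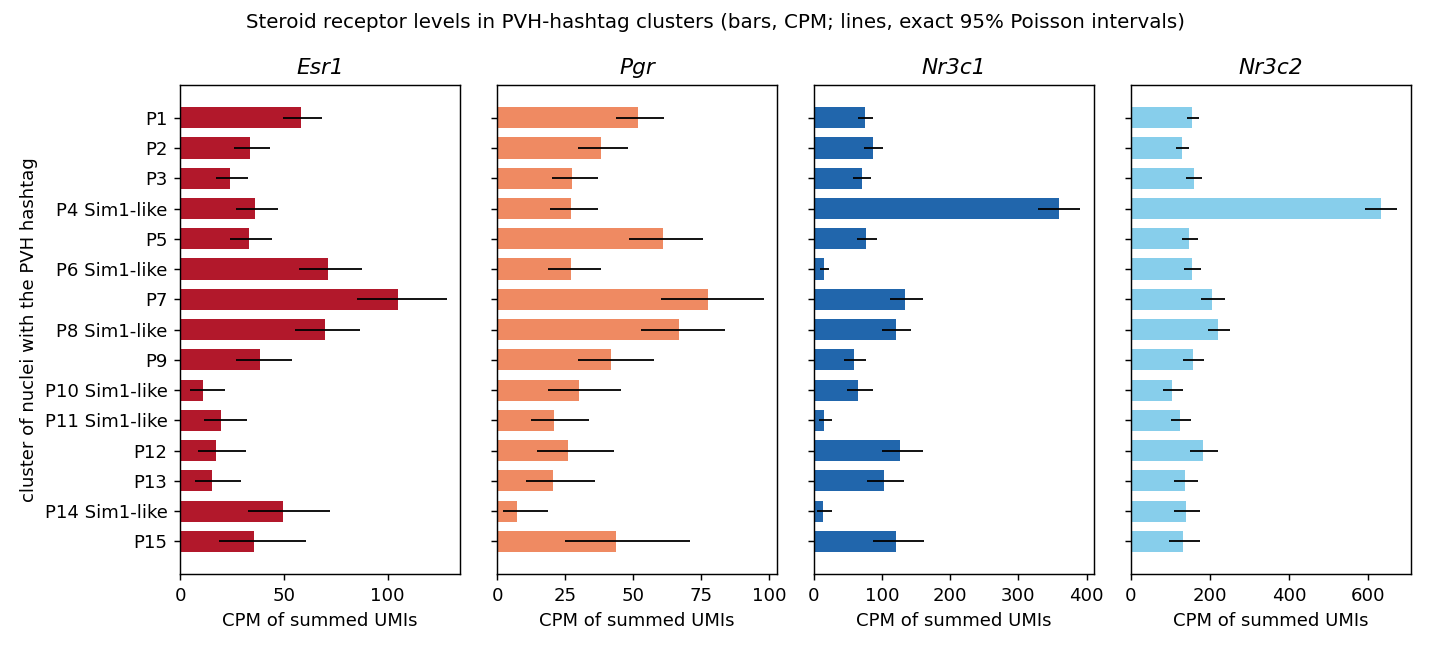
Bars show the CPM of summed UMIs of Esr1, Pgr, Nr3c1 and Nr3c2 in the 15 PVH clusters, 1 panel per gene with its own axis from 0, and lines show exact 95% Poisson intervals. Cluster P4 has the highest bar for Nr3c1 (359 CPM) and for Nr3c2 (631 CPM), while P6, P11 and P14 have the lowest for Nr3c1 (14.4, 14.9 and 12.9 CPM).

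P4 stood apart in both corticosteroid receptors. Nr3c1 was at 359 CPM (329 to 391) in P4 and 75.2 CPM in the other PVH neurons, 4.77-fold higher (log2 2.25, interval 2.10 to 2.40). Nr3c2 was at 631 CPM (591 to 673) and 155 CPM, 4.07-fold higher (log2 2.02, interval 1.91 to 2.13). Genes called higher in P4 were 5.24% of 12061 and genes called lower 9.95%. P4 was 9.82% of PVH nuclei and held 31.4% of their Nr3c1 UMIs and 28.0% of their Nr3c2 UMIs. Nr3c1 was seen in 71.9% of its nuclei and Nr3c2 in 88.1%, at a median of 4605.5 UMIs. P4 is glutamatergic, with Scgn and the angiotensin receptor gene Agtr1a among its leading genes. Crh, which encodes corticotropin-releasing hormone, was at 14.4 CPM there, the highest level among the Sim1-like clusters, with 7.21 CPM in P6. Clusters outside the Sim1-like class also held Crh, at 6.47 CPM in A9 and 5.72 CPM in the KNDy-like cluster. These levels are low, and Crh does not by itself name P4 as corticotropin-releasing neurons. Esr1 was at 36.2 CPM and Pgr at 27.3 CPM in P4.

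The oxytocin-rich and vasopressin-rich clusters and P6 were at the other end for Nr3c1. P14 was at 12.9 CPM (5.19 to 26.6), P6 at 14.4 CPM (8.54 to 22.8) and P11 at 14.9 CPM (7.69 to 26.0), with overlapping intervals, and P9, the next, was at 58.5 CPM (43.8 to 76.5). The span from P4 to P14 was 27.8-fold. Against the other PVH neurons, P6 was 7.42-fold lower (log2 -2.89, interval -3.65 to -2.23), P11 7.01-fold lower (log2 -2.81) and P14 7.97-fold lower (log2 -3.00), where 6.96%, 12.8% and 10.7% of genes were called lower and 3.74%, 6.59% and 5.45% higher. They were lower under every alternative that gave a value, but by less at Leiden resolution 0.3 for P6 (log2 -1.72) and P11 (log2 -0.75) and without an upper limit on genes or counts for P14 (log2 -1.93). P11 had the deepest nuclei of all clusters (median 7132.5 UMIs), and Nr3c1 was still seen in 10.2% of them. Nr3c2 was not low to that degree in these clusters, at 155 CPM in P6, 125 CPM in P11 and 140 CPM in P14.

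Among Sim1-like clusters together, Nr3c2 was called higher than in other PVH neurons (273 CPM and 155 CPM, log2 0.82, interval 0.72 to 0.92), beside 3.79% of genes called higher and 5.51% lower. Those other neurons were not free of Sim1, as they included the unnamed clusters P12 and P1, with Sim1 at 215 CPM and 77.6 CPM. In the Sim1-like clusters Sim1 ran from 198 CPM in P8 to 387 CPM in P14. Nr3c1 was at 1.47-fold of the rest (log2 0.55), and Esr1 (log2 0.10), Pgr (log2 -0.46) and Nr3c1 were not called. The Nr3c2 and Nr3c1 ratios include P4, at 631 CPM and 359 CPM. In the other Sim1-like clusters Nr3c2 ran from 105 CPM in P10 to 221 CPM in P8. Nr3c1 ran there from 12.9 CPM in P14 to 120 CPM in P8, against 85.8 CPM outside the class. Of these clusters P8 alone was above the neurons outside the class in either gene. Neither ratio was computed without P4. Over the alternatives the Pgr ratio ran down to -1.02 and the Nr3c1 ratio came to 0.66 with class names at 2-fold, both past the threshold, and the Esr1 ratio had the other sign under 5 of 16. Below P4, the other 13 of the 14 neighbouring pairs in the order of Nr3c2 had overlapping intervals, from 221 CPM in P8 to 105 CPM in P10.

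Esr1 in PVH nuclei was highest in P7 at 105 CPM (85.1 to 129), a GABAergic cluster with Nr5a2 and Six6 among its leading genes, then in P6 at 71.3 CPM (57.2 to 87.7), P8 at 69.7 CPM (55.1 to 86.8) and P1 at 58.3 CPM, and lowest in P10 at 10.9 CPM (4.70 to 21.5). Every one of the 14 neighbouring pairs overlapped. Pgr was also highest in P7, at 77.5 CPM (60.4 to 97.9), followed by P8 (52.8 to 83.9 CPM) and P5 (48.4 to 75.8 CPM), and lowest in P14, at 7.37 CPM (2.01 to 18.9, from 4 UMIs). P6 held Esr2 at 83.3 CPM (68.0 to 101), with Esr2 at 49.6 CPM in P11 and 35.4 CPM in P10. These 3 Sim1-like clusters held 73.0% of the Esr2 UMIs of PVH nuclei and 14.1% of the nuclei, and P6 was the one that also stood high in Esr1.

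Clusters were split by transmitter into glutamatergic and GABAergic. In ARC nuclei, Nr3c1 was at 88.3 CPM in glutamatergic and 149 CPM in GABAergic clusters (log2 -0.76, interval -0.89 to -0.63) and Nr3c2 at 126 CPM and 199 CPM (log2 -0.66, interval -0.77 to -0.55), both called lower beside 2.96% of genes called lower and 3.7% higher. The GABAergic side includes the AGRP-like cluster, with Nr3c2 at 306 CPM and 34.2% of the Nr3c2 UMIs of ARC nuclei. In the other GABAergic clusters Nr3c2 ran from 51.2 CPM in A5 to 253 CPM in A11. Whether the Nr3c2 call holds without the AGRP-like cluster was not tested. Esr1 (log2 0.29) and Pgr (log2 0.01) were not called. Without the mixed cluster A2, Esr1 was at log2 0.79 (interval 0.66 to 0.91), past the threshold, and with both hashtags clustered together Esr1 (0.94) and Pgr (0.81) both were. In PVH nuclei none of the 4 was called, with 4.17% of genes called higher and 2.96% lower. Nr3c1 was at log2 0.27, Nr3c2 at 0.49, Esr1 at -0.16 and Pgr at -0.54. The glutamatergic side includes P4, with Nr3c1 at 359 CPM and Nr3c2 at 631 CPM, and no ratio was computed without it. Pgr passed the threshold under 6 of 14 alternatives, with log2 -0.96 (interval -1.23 to -0.69) without the mixed clusters P1 and P2, and Nr3c2 under 2 of them (0.59).

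Genes around the receptors were read from 4 lists, of chaperones and immunophilins that hold the unbound receptor (7 genes), coregulators (10), steroid-metabolising enzymes (7, of which 2 reached 100 UMIs) and classical target genes (8, of which 7 reached it within ARC or PVH nuclei). In the KNDy-like cluster, 1 of 7 chaperones and immunophilins was called higher (median log2 0.08), 1 of 10 coregulators (0.02), 0 of 2 enzymes and 2 of 7 target genes, with 1 lower (0.14), beside a median of -0.03 over all genes, of which 5.71% were called higher and 9.68% lower. Greb1, an estrogen-induced cofactor gene, was at 286 CPM there and 45.1 CPM in the other ARC neurons (log2 2.66, interval 2.47 to 2.86). Nrip1, which encodes a corepressor that is itself estrogen-induced, was at 159 CPM and 50.4 CPM (log2 1.66). Fkbp5, a glucocorticoid-induced immunophilin gene that stands in 2 of the lists, was at 126 CPM and 61.2 CPM (log2 1.04), and Zbtb16, another glucocorticoid target, at 13.3 CPM and 41.5 CPM (log2 -1.64). Among ARC clusters Fkbp5 was highest in the one with the lowest Nr3c1.

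Over the ARC clusters Greb1 was also high in A5 (169 CPM), A9 (124 CPM) and A7 (85.3 CPM) and low in the AGRP-like (12.2 CPM) and VMH-like (7.36 CPM) clusters. The 4 clusters with the highest Nrip1 were again A8, A7, A5 and A9, at 159 to 99.9 CPM. In the AGRP-like cluster 0 of 7 chaperones and immunophilins was called, Nrip1 was the 1 coregulator called lower (log2 -1.98) and Greb1 the 1 target gene (log2 -2.49), beside 8.23% of all genes called lower. Between the hashtags, Greb1 was lower in PVH nuclei (20.4 CPM against 58.1 CPM, log2 -1.51) and was the 1 of 8 target genes called, and Ppargc1a, a coactivator gene, was the 1 of 10 coregulators called (log2 0.74), beside 4.19% of all genes called lower and 4.41% higher.

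In P4, 3 of 7 target genes were called higher and none lower, with a median log2 of 0.59 against -0.01 over all genes, of which 5.24% were called higher and 9.95% lower. Zbtb16 was at 118 CPM in P4 and 24.2 CPM in the other PVH neurons (log2 2.28, interval 2.01 to 2.55). Klf9, a glucocorticoid-induced factor gene, was at 66.3 CPM and 29.9 CPM (log2 1.15), and Fkbp5 at 63.6 CPM and 42.1 CPM (log2 0.59). Sgk1, the classical mineralocorticoid target, was at 49.2 CPM in P4, with its highest PVH level in P8 (108 CPM). Of the coregulators, Ncoa1 was called higher in P4 (507 CPM and 322 CPM, log2 0.66) and Nrip1 lower (log2 -1.10). P14, the cluster with the lowest Nr3c1, held 0 UMIs of Zbtb16. P13 had Zbtb16 at 3.43 CPM with Nr3c1 at 103 CPM. The ARC clusters did not pair Nr3c1 and Zbtb16 in this way. A13, highest in Nr3c1 (314 CPM), had Zbtb16 at 30.7 CPM, and A6 had the highest Zbtb16 (81.9 CPM) with Nr3c1 at 73.2 CPM. In A13, 1 of 7 target genes was called higher and 2 lower (median log2 -0.40), beside 4.22% and 6.75% of all genes. The 1 called higher was Klf9, at 64.3 CPM (46.7 to 86.3), its highest level among ARC clusters. A9 was next in Klf9, at 53.6 CPM (40.7 to 69.3), with an overlapping interval. The 2 called lower were Sgk1 and Greb1.

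**Figure D5:**
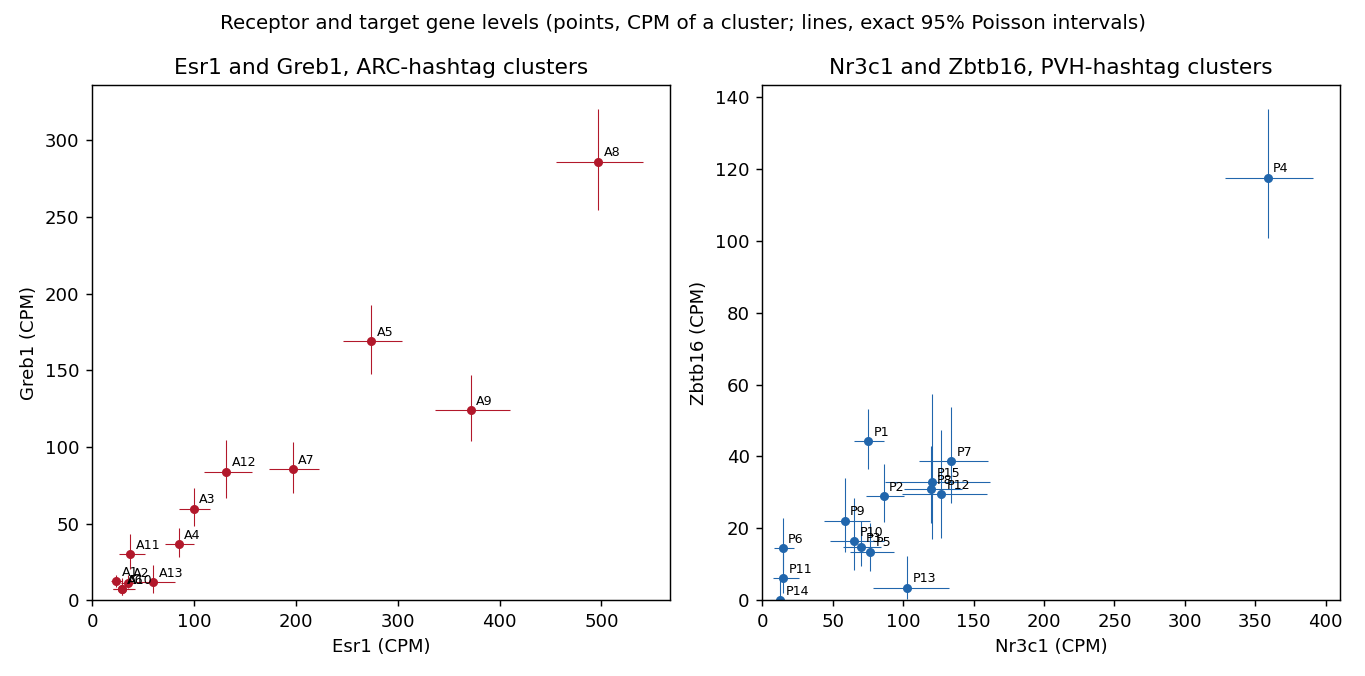
Each point is a cluster, placed by CPM of Esr1 and Greb1 in ARC clusters (left) and of Nr3c1 and Zbtb16 in PVH clusters (right), on linear axes from 0 with exact 95% Poisson intervals. A8 is highest in both Esr1 (497 CPM) and Greb1 (286 CPM), and P4 in both Nr3c1 (359 CPM) and Zbtb16 (118 CPM).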

How the data were processed

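The authors deposited raw UMI counts per gene and barcode for 11409 barcodes with counts of 2 hashtags, made with Cell Ranger (5.0 in the submitters' processing notes, 4.0.0 in the matrix header) on mm10. Whether intronic reads were counted is a point on which the sources used here are silent. Nuclei were kept if they had over 800 but under 5000 genes, no more than 12000 counts and a mitochondrial share up to 1%, then demultiplexed at a positive quantile of 0.8 in R 4.3.3 with Seurat 5.3.0 (the authors used version 4). Doublets were removed by hashtag only (944 nuclei), and 2385 nuclei had no hashtag call. ARC and PVH nuclei were clustered separately (2000 variable genes less the steroid receptors, 30 components, 20 neighbours, Leiden resolution 0.55, leidenbase 0.1.32).

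A name needed the first marker of a class and at least 3 of its markers at 1.5-fold or more over other neurons, each with at least 3 UMIs. A cluster was not named if another class had more markers among its 10 leading genes, if 2 names passed, or if it passed a non-neuronal list. P9 passed the dopaminergic list with Th at 17.7 CPM and is called by its number. Ratios have exact binomial intervals (Python 3.11.15, scipy 1.17.1), over genes with at least 100 UMIs in the nuclei compared. The step was tested on simulated data. Alternatives changed the filters, the hashtag quantile, the clustering, the names, the scaling (TMM, edgeR 4.0.16, on the deposited counts) and the depth. Similar genes are the 5 with the highest correlation per receptor. The receptors, marker lists, pathway lists and naming thresholds were chosen with earlier results of these data known. Thinning to 1000 UMIs left out 0 ARC nuclei and 1 PVH nucleus. Promoters are from RefSeq.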

Additional observations from a re-analysis of the deposited data

Results flagged for a closer look

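Nr3c1 and Nr3c2 had opposite signs in the 2 hashtags when glutamatergic clusters were set against GABAergic ones. Nr3c1 was at log2 -0.76 in ARC nuclei and 0.27 in PVH nuclei, and Nr3c2 at -0.66 and 0.49. The glutamatergic PVH side includes P4, which held 31.4% of the Nr3c1 UMIs and 28.0% of the Nr3c2 UMIs of PVH nuclei. The GABAergic ARC side includes the AGRP-like cluster, which held 34.2% of the Nr3c2 UMIs of ARC nuclei. These ratios were not computed without either cluster, so the signs may not describe transmitter classes at large. The difference between the hashtags was not tested, since there is 1 pooled library.

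Nuclei without a hashtag call, which enter no comparison, also held the receptors. Their levels were 61.8 CPM for Esr1, 44.9 CPM for Pgr, 113 CPM for Nr3c1 and 190 CPM for Nr3c2, from 2385 nuclei with a median of 3925 UMIs. Esr1 and Pgr lay between the ARC and PVH levels.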

How the results depend on the processing

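No paired analysis was possible because the series holds 1 pooled library and no replicates. Of 811 alternative values, 710 moved by less than the counting interval, 99 moved by more and 2 turned, that is, a called ratio or a difference between shares changed sign. The cause of the moves was not tested. Of the 31 ratios called, 5 lost the call under an alternative with an interval (Pgr in the dopaminergic-like and VMH-like clusters and A9, Nr3c1 in the AGRP-like cluster and Nr3c2 in P11) and none changed sign. Of the 25 not called, 13 passed the threshold under at least 1 alternative and 11 changed sign, in 33 values, most often Nr3c2 in the SST-like cluster (9 of 16 alternatives). In the ratios between hashtags, of the KNDy-like and Sim1-like classes and between transmitters, 34 of the 99 moves were found, as follows. With nuclei of the mixed clusters A2, P1 and P2 left out, an alternative chosen after seeing the data, PVH over ARC came to -1.64 for Esr1, -1.03 for Pgr and 0.31 for Nr3c2, KNDy-like over other ARC neurons to 2.21 for Esr1, glutamatergic over GABAergic ARC clusters to 0.79 for Esr1 and 0.40 for Pgr, and the same in PVH to -0.55 for Esr1 and -0.96 for Pgr. At a positive quantile of 0.99 for the hashtags, PVH over ARC came to -1.75 for Esr1 and -1.04 for Pgr, Sim1-like over other PVH neurons to -0.35 for Esr1, and glutamatergic over GABAergic ARC clusters to -0.79 for Nr3c2 and 0.44 for Pgr. With both hashtags clustered together, Sim1-like ratios came to -0.32 for Esr1 and -1.02 for Pgr, ARC glutamatergic over GABAergic ratios to 0.94 for Esr1, 0.81 for Pgr and -0.81 for Nr3c2, and PVH ones to -0.40 for Esr1 and -0.82 for Pgr. After thinning to 1000 UMIs, the KNDy-like ratios came to 1.71 for Pgr and -1.41 for Nr3c2, PVH over ARC to -0.66 for Pgr, ARC glutamatergic over GABAergic ratios to -0.59 for Nr3c1 and 0.32 for Pgr, and the PVH one to 0.18 for Esr1. Without an upper limit on genes or counts, Sim1-like ratios came to -0.36 for Esr1 and -0.95 for Pgr, and glutamatergic over GABAergic PVH clusters to 0.063 for Nr3c1. Sim1-like ratios also came to -0.97 for Pgr with up to 5% mitochondrial counts, to 1.01 for Nr3c2 and -0.98 for Pgr with class names at 2-fold, and to 0.72 for Nr3c1 and 0.95 for Nr3c2 with every nucleus weighing the same.

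The 2 that turned were differences between shares after thinning, where 12.0% of ARC nuclei with Nr3c1 held Nr3c2 (15.0% of those without) and 2.92% of PVH nuclei with Esr1 held Pgr (4.36% of those without). At a positive quantile of 0.99, no AGRP-like, VMH-like or dopaminergic-like cluster could be named and no PVH cluster was GABAergic, so these ratios have no value there, and Nr3c1 in P11 had none after thinning. A cluster entered an alternative where the nuclei shared with its best match were at least 0.5 of those in either.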
